A study of Homo sapiens with 8 samples.

Results

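The 7 genes described here are the nuclear long noncoding RNAs NEAT1 and MALAT1, the small nucleolar RNA (snoRNA) host transcripts GAS5 and SNHG1, and SFPQ, NONO and PSPC1, which encode the core proteins of paraspeckles. They were matched by symbol to 7 of the 58233 gene rows of the counts table. All 7 passed the low-count filter in every comparison. NEAT1 and MALAT1 were selected on their fall after ionizing radiation (IR) in control cells, so the values of all 7 genes in that comparison are given as a description without a test.

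RNA-seq libraries came from MCF10A-Hras cells, a non-tumorigenic human breast epithelial line (MCF10A) that carries H-Ras in every group. The 4 groups were control (WT) cells left untreated (UT), control cells 12 h after 5 Gy of X-ray IR, RBM6-KO1 cells left untreated, and RBM6-KO1 cells 12 h after the same dose, with 2 biological replicates each (A and B). RBM6-KO1 is 1 clone with a CRISPR knockout, made with a Cas9 nickase, of the RNA-binding splicing regulator RBM6, so a genotype difference cannot be told apart from a difference between clones. RBM6 mRNA stood at 66.9 and 68.8 normalized CPM in the untreated control libraries and at 61.5 and 63.2 in the untreated RBM6-KO1 libraries. After IR the log2 fold change of RBM6-KO1 against control cells was −0.40. With IR it was −0.69 in RBM6-KO1 cells and −0.40 in control cells. Only the −0.69 had an edgeR adjusted p below 0.05. Counts over the whole gene do not read a small edit in the coding sequence, so they do not check the genotype.

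NEAT1 is the RNA scaffold of paraspeckles, nuclear bodies that hold RNA-binding proteins and certain nuclear RNAs. MALAT1 is transcribed next to it and gathers at nuclear speckles, the bodies rich in splicing factors. GAS5 and SNHG1 carry snoRNAs in their introns, which guide the modification of ribosomal RNA, and their spliced transcripts are exposed to nonsense-mediated decay. SFPQ, NONO and PSPC1 belong to 1 family of DNA- and RNA-binding proteins that dimerize with each other. SFPQ and NONO bind the long NEAT1 isoform and also act in the repair of DNA double-strand breaks.

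NEAT1 lies at chr11:65422774-65445540 and MALAT1 at chr11:65497640-65508073 (GRCh38, plus strand, GENCODE v44), 52099 bases apart. Their 3′ ends are shown because they bear on which forms a poly(A)-selected library can hold. The short NEAT1 isoform ends in a poly(A) tail, and 6 of the 9 annotated NEAT1 transcripts end within 200 bases of its 3′ end. The long isoform runs on for a further 19027 bases and, like MALAT1, is cut by RNase P and ends in a triple helix in place of a tail. In the first sequence the capitals mark the AATAAA poly(A) signal in the last 60 bases of the short isoform (chr11:65426454-65426513). In the other two they mark the 16 bases that the end of long NEAT1 shares with MALAT1 and the closing GCAAAA, over the last 80 bases of the long isoform (chr11:65445461-65445540) and over 80 bases of MALAT1 (chr11:65506037-65506116), both read from the plus strand.
NEAT1 short isoform: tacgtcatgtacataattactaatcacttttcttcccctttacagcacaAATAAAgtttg
NEAT1 long isoform: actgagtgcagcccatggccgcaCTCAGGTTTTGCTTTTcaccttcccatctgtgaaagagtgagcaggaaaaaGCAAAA
MALAT1: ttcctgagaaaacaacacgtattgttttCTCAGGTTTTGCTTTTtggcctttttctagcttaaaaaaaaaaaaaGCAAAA

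The counts are per gene, so the NEAT1 isoforms are summed in 1 value and their ratio was not analysed here. The libraries were made with the TruSeq mRNA kit, which enriches polyadenylated RNA. Whether the strand was used in counting is not given in the sources used here. Annotated genes on the opposite strand overlap MALAT1 (TALAM1 and another long noncoding RNA, which unlike TALAM1 has a row of counts), GAS5 (ZBTB37 and GAS5-AS1 among them), NONO (ZMYM3) and PSPC1 (PSPC1-AS2). Without strand, their reads cannot be told apart from those of the gene they overlap. SFPQ had no overlapping gene in the annotation. NEAT1 and SNHG1 overlapped only small RNA genes on their own strand.

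Each library held between 15355281 and 29832009 counts on genes, so a count of 0 allows up to 0.0966 to 0.204 normalized CPM. CDKN1A, the p53 target that encodes p21, was at 449 and 470 normalized CPM in untreated and 1500 and 1720 in irradiated control libraries, and rose from between 383 and 402 to between 1607 and 1611 with IR in RBM6-KO1 libraries. Of 13 markers of other cell types, 10 were below the filter and reached at most 0.676 normalized CPM, with CD3E at 0 in all 8 libraries. Of the other 3, after IR in RBM6-KO1 cells, ACTA2, smooth muscle actin, was called higher (log2 fold change 1.52, SE 0.19, edgeR adjusted p = 0.0075), while PECAM1 was at −0.27 (adjusted p = 0.62) and COL1A1 at −0.59 (adjusted p = 0.161). ACTA2 was also called higher after IR in control cells (1.30). The sum of the 13 markers was 23.0 and 26.2 normalized CPM in untreated control, 35.9 and 35.4 in irradiated control, 20.8 and 20.6 in untreated RBM6-KO1 and 29.9 and 32.4 in irradiated RBM6-KO1 libraries. All 10 breast epithelial markers were detected, and EPCAM was called lower in RBM6-KO1 cells, both untreated (log2 fold change −1.79, SE 0.22, adjusted p = 4.43e-05) and after IR (−1.82, SE 0.22, adjusted p = 0.0151). Of the 10, 3 were above 0 and 7 below 0 in untreated RBM6-KO1 against control cells, and by the adjusted p alone KRT14 was higher (0.78, adjusted p = 0.0156) and KRT18 lower (−0.63, adjusted p = 0.0175). CDH1 was called higher after IR in control cells (1.18). The part of these marker differences in the results below was not tested.

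NEAT1 fell after IR by about the same amount in both genotypes. In control cells it stood at 1348 and 1586 normalized CPM (counts scaled to library size with TMM factors) before IR and at 539 and 512 after IR. In RBM6-KO1 cells it stood at 1377 and 1682 before IR and at 628 and 427 after IR. Every irradiated library was below every untreated library, and the irradiated RBM6-KO1 replicates were further apart (1.47-fold) than the irradiated control replicates (1.05-fold). In these bulk poly(A)-selected libraries, fewer cells with the RNA, less RNA per cell and less capture of forms without a tail cannot be told apart. The same limit holds for every MALAT1 difference below, because MALAT1 ends without a tail.

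The genes were chosen with earlier results of these data known, though the stated selection named only the fall in control cells. The fall of NEAT1 in RBM6-KO1 cells was tested in the RBM6-KO1 libraries alone. It was 2.93-fold (log2 fold change −1.55, SE 0.20, n = 2 against 2, edgeR quasi-likelihood adjusted p = 0.00783), the 40th smallest p of the 15598 genes tested. The fall in control cells had a log2 size of −1.49 (SE 0.17). The difference between the 2 responses was −0.055 (SE 0.27), with a 95% interval from −0.64 to 0.53, given as a size only because it contains the comparison that chose the gene.

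MALAT1 fell after IR in both genotypes and varied most between replicates of the 7 genes. Control libraries held 6710 and 5087 normalized CPM before IR and 2085 and 1527 after IR. RBM6-KO1 libraries held 8712 and 14543 before IR and 5305 and 1806 after IR. The irradiated libraries were below the untreated ones within each genotype, but irradiated RBM6-KO1 replicate A was above untreated control replicate B. MALAT1 took 0.678% and 0.506% of all gene counts in untreated control cells, and 0.891% and 1.39% in untreated RBM6-KO1 cells.

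In RBM6-KO1 cells the fall of MALAT1 was 3.30-fold (log2 fold change −1.72, SE 0.42, adjusted p = 0.0472). The irradiated replicates differed 2.94-fold, at 102815 and 36874 counts of MALAT1. Of the 16445 genes compared, which include genes with low counts, 7.52% differed at least 2-fold between these replicates. The size followed these replicates: −2.68 without irradiated replicate A and −1.13 without irradiated replicate B. With DESeq2's Wald test the adjusted p was 0.135 at the same size (−1.72), so the call was lost; over all alternatives it ran from 1.1e-120, with a crossed replicate block, to 0.135. The fall in control cells had a log2 size of −1.72 (SE 0.22), and the difference between the responses was −0.0014 (SE 0.57, 95% interval −1.27 to 1.27), an interval that spans more than a 2-fold change either way.

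Of the 7 genes, 2 were called in the IR comparison of RBM6-KO1 cells (a fold change of 2 or more and an adjusted p below 0.05), both lower, where 3.11% of all genes tested were called in either direction and 1.97% lower. By the adjusted p alone 3 were lower, against 5.67% of genes in either direction and 3.23% lower. In control cells, 3.59% of genes were called, which is given only for scale because the fall there chose the genes. The groups did not overlap for 5 of the 7 genes in RBM6-KO1 cells and for 5 of 7 in control cells, beside 62.1% and 57.1% of all genes tested, a share near that of all genes.

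**Figure D1:**
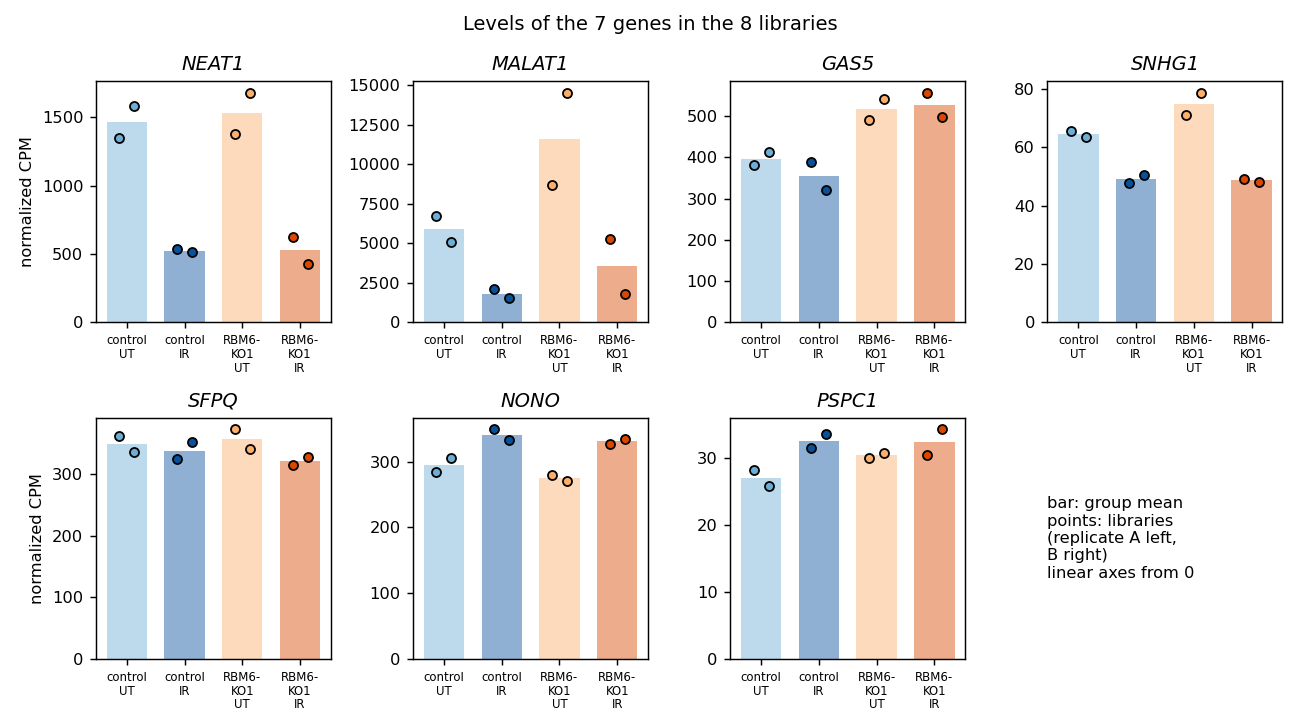
Normalized CPM of the 7 genes (linear axes from 0) in untreated (UT) and irradiated (IR) control and RBM6-KO1 cells; bars are means of 2 libraries and points are the libraries, replicate A on the left. NEAT1 and MALAT1 were lower in both irradiated groups than in the untreated group of the same genotype, MALAT1 was highest in untreated RBM6-KO1 cells, and SFPQ, NONO and PSPC1 stayed within narrow ranges.

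SNHG1, a snoRNA host at chr11:62851978-62855953, was also lower after IR, by less than 2-fold. Control cells held 65.7 and 63.5 normalized CPM before IR and 47.7 and 50.4 after IR, and RBM6-KO1 cells held 71.3 and 78.8 before IR and 49.3 and 48.1 after IR. The 4 irradiated libraries lay between 47.7 and 50.4, below all 4 untreated libraries. In RBM6-KO1 cells the change passed the adjusted p without reaching 2-fold (log2 fold change −0.64, SE 0.15, adjusted p = 0.0451). The adjusted p was 0.305 without untreated replicate B (−0.56) and 0.179 without irradiated replicate B (−0.61), and over all alternatives it ran from 2.83e-10 to 0.305. The control change was −0.40 (SE 0.17).

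GAS5, the other snoRNA host (chr1:173858559-173868882), did not share this pattern. It was at 381 and 412 normalized CPM in untreated and 388 and 321 in irradiated control cells, and at 492 and 541 in untreated and 557 and 499 in irradiated RBM6-KO1 cells. Untreated and irradiated libraries overlapped in both genotypes, while all 4 RBM6-KO1 libraries were above all 4 control libraries. The IR difference in RBM6-KO1 cells was 0.017 (SE 0.15, 95% interval −0.31 to 0.34, adjusted p = 0.948), and in control cells it was −0.17 (SE 0.17).

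The mRNAs of the paraspeckle proteins showed no called change after IR. SFPQ (chr1:35176378-35193446) was measured at 361, 336, 324 and 352 normalized CPM in the untreated and irradiated control libraries and at 373, 340, 316 and 329 in the RBM6-KO1 libraries. Its range over all 8 libraries was 316 to 373, with no overlap between irradiated and untreated RBM6-KO1 cells. The IR difference in RBM6-KO1 cells was −0.16 (SE 0.14, 95% interval −0.48 to 0.16, adjusted p = 0.466). It was −0.35 with trends in GC content and length removed (adjusted p = 0.0992), and over all alternatives the adjusted p ran from 0.0469, with the crossed replicate block, to 0.856.

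NONO (chrX:71254814-71301522), which pairs with SFPQ, had values above 0 after IR. It was at 285 and 306 normalized CPM before IR and at 349 and 333 after IR in control cells, and at 280 and 271 before IR and 327 and 335 after IR in RBM6-KO1 cells. Each irradiated library was above every untreated library. The size was small, with a log2 difference of 0.25 in RBM6-KO1 cells (SE 0.14, 95% interval −0.065 to 0.56, adjusted p = 0.26) that did not pass the test, and of 0.20 (SE 0.15) in control cells. With trends in GC content and length removed, the difference was 0.093 in RBM6-KO1 cells and −0.021 in control cells, so its direction in control cells depended on this setting. The crossed replicate block, chosen after seeing the data, gave 0.25 in RBM6-KO1 cells at an edgeR adjusted p of 0.00183.

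PSPC1 (chr13:19674752-19783019), the third protein of the family, was the least abundant of the 7 genes. Control libraries held 28.2 and 25.9 normalized CPM before IR and 31.5 and 33.5 after IR, and RBM6-KO1 libraries held 29.9 and 30.7 before IR and 30.4 and 34.2 after IR. The RBM6-KO1 groups overlapped and the control groups did not. The IR difference in RBM6-KO1 cells was 0.075 (SE 0.17, 95% interval −0.30 to 0.45, adjusted p = 0.788).

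**Figure D2:**
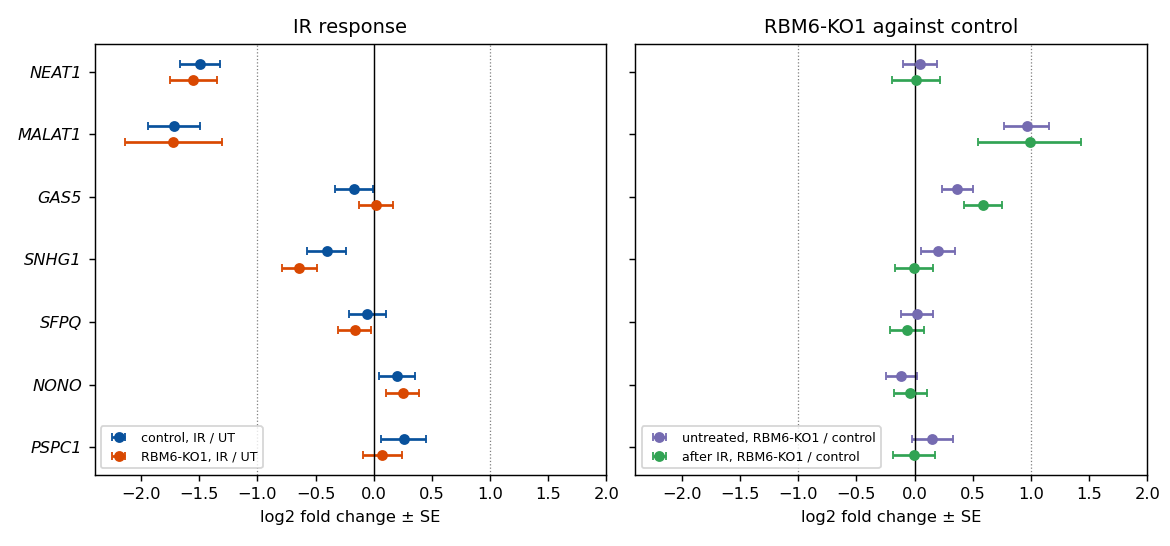
Log2 fold changes with their standard errors (bars) for the 7 genes, on the left after IR against untreated in control and RBM6-KO1 cells and on the right RBM6-KO1 against control, untreated and after IR; dotted lines mark a 2-fold change. NEAT1 (−1.49 and −1.55) and MALAT1 (−1.72 in both) lie beyond the dotted line on the left, and MALAT1 (0.96 and 0.99) lies just inside it on the right.

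The genotype comparisons share the control libraries with the comparison that chose NEAT1 and MALAT1. In untreated cells none of the 7 genes was called, where 3.12% of genes tested were. MALAT1 passed the adjusted p alone, as 6.12% of genes did, and was 1.95-fold higher in RBM6-KO1 cells (log2 fold change 0.96, SE 0.20, adjusted p = 0.0054). Both untreated RBM6-KO1 libraries (8712 and 14543 normalized CPM) were above both control libraries (6710 and 5087). The difference was 0.56 without untreated RBM6-KO1 replicate B and 1.27 without replicate A. The adjusted p was 0.0723 without untreated control replicate B (0.79) and 0.283 in 1 fit of all 8 libraries (0.98), and over all alternatives it ran from 2.29e-19 to 0.283. Mitochondrial genes took 7.96% to 8.89% of counts in the control libraries and 9.44% to 10.1% in the RBM6-KO1 libraries, and the part of this in the MALAT1 difference was not tested.

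After IR, MALAT1 had nearly the same genotype difference with a wider error. It was 0.99 (SE 0.44, 95% interval −0.052 to 2.03, adjusted p = 0.482), and the groups overlapped because RBM6-KO1 replicate B (1806) lay between the control libraries (2085 and 1527). The value was 0.0046 without RBM6-KO1 replicate A and 1.56 without replicate B, at adjusted p-values of 1 and 0.00475 in a range over all alternatives from 6.38e-11 to 1. The 2 RBM6-KO1 libraries therefore gave different answers, and 1.17% of genes tested were called in this comparison (1.21% by the adjusted p alone), with none of the 7 among them by either rule.

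NEAT1 did not follow MALAT1 in the genotype comparisons. Its difference was 0.045 in untreated cells (SE 0.15, 95% interval −0.26 to 0.35, adjusted p = 0.92) and 0.013 after IR (SE 0.21, 95% interval −0.47 to 0.50, adjusted p = 0.995). The RBM6-KO1 and control libraries overlapped under both conditions. Both intervals lie within a 2-fold difference in either direction and span smaller ones.

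GAS5 was higher in RBM6-KO1 cells in every library without passing the adjusted p. Its difference was 0.37 in untreated cells (SE 0.14, adjusted p = 0.137) and 0.58 after IR (SE 0.16, adjusted p = 0.193), at unadjusted p-values of 0.0148 and 0.00836. Without the filter on low counts the difference after IR was 0.60 at an adjusted p of 0.0164, and without untreated RBM6-KO1 replicate A the untreated difference was 0.42 at 0.0334. Over all alternatives the adjusted p ran from 0.0334 to 0.621 in untreated cells and from 0.000599 to 0.767 after IR. GAS5 was the only one of the 7 genes whose groups did not overlap after IR, where 38.7% of all genes did not overlap, and 5 of the 7 did not overlap in untreated cells, beside 47.7% of all genes.

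The remaining genotype differences were small. SNHG1 differed by 0.20 in untreated cells (adjusted p = 0.526) and by −0.0044 after IR (adjusted p = 0.997). SFPQ differed by 0.020 and −0.063, NONO by −0.11 and −0.036, and PSPC1 by 0.15 and −0.0027, none with an adjusted p under 0.05. The widest 95% interval among these 3 protein genes was that of PSPC1 after IR, from −0.43 to 0.42.

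Per kilobase of exonic sequence, MALAT1 was first in all 4 groups, with means of 565, 173, 1114 and 341 normalized CPM per kb in untreated control, irradiated control, untreated RBM6-KO1 and irradiated RBM6-KO1 cells. GAS5 was second, with means of 80.4, 71.9, 105 and 107. NEAT1 was in the third place in both untreated groups (64.4 and 67.2) and in the fifth in both irradiated groups (23.1 and 23.2), below SFPQ (43.8 and 41.7) and NONO (30.4 and 29.5). SNHG1 was sixth and PSPC1 seventh in all groups. No 2 neighbours in these orders overlapped between their libraries. The NEAT1 gene model is 22767 bases long and holds the part found only in the long isoform. Values per kb of either isoform are not known from these counts. The places of NEAT1 and MALAT1 also hold only for the RNA that poly(A) enrichment captured.

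The genes nearest to MALAT1 in pattern followed its change between replicates. Replicate B over replicate A of MALAT1 was −0.40 in untreated control, −0.45 in irradiated control, 0.74 in untreated RBM6-KO1 and −1.55 in irradiated RBM6-KO1 cells on the log2 scale. The 5 genes nearest to MALAT1 in pattern over the 8 libraries were DNAJC2, NSRP1, SSB, LARP7 and CWF19L2, with Pearson correlations of log2 CPM from 0.992 to 0.995 among 9253 genes compared. SSB and LARP7 encode La-family proteins that bind the 3′ ends of RNA polymerase III transcripts, and NSRP1 encodes a nuclear speckle splicing factor. The same replicate ratio in irradiated RBM6-KO1 cells was −0.98 for DNAJC2, −1.23 for NSRP1, −0.56 for SSB, −1.01 for LARP7 and −0.73 for CWF19L2. All 5 had the sign of MALAT1 in each of the 4 groups, but they were chosen as the highest correlations over these same libraries. Their likeness includes this split between replicates as well as the split by IR, so the agreement is a description.

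The 5 genes nearest to NEAT1 were HOOK2, SNAPC4, CENPT, CDK10 and RPL36A, with correlations from 0.988 to 0.992. Their levels fell with NEAT1 by IR and differed little by genotype: SNAPC4, a subunit of the complex that starts small nuclear RNA transcription, had group means of 61.2, 31.2, 59.3 and 33.2 normalized CPM, and CDK10, a cyclin-dependent kinase, had 103, 58.7, 100 and 61.4, in the order untreated control, irradiated control, untreated RBM6-KO1 and irradiated RBM6-KO1. RPL36A, a ribosomal protein gene, had means of 14.8, 5.33, 16.6 and 6.12 in the same order. These correlations are over 8 libraries that share the same IR and genotype groups, and they were chosen as the highest, so they are a description.

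**Figure D3:**
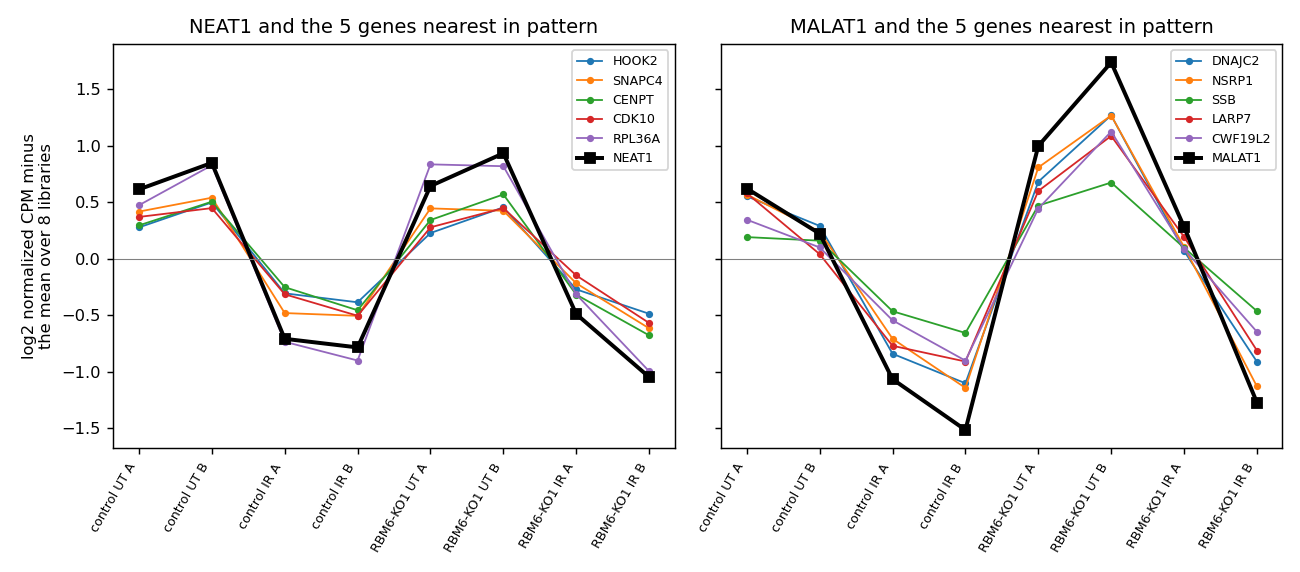
Log2 normalized CPM of NEAT1 (left, black) and MALAT1 (right, black) in each of the 8 libraries, minus the gene's mean over the libraries, with the 5 genes nearest in pattern in colour. The NEAT1 lines fall after IR to about the same level in both genotypes, while the MALAT1 lines are highest in untreated RBM6-KO1 replicate B and differ between the irradiated RBM6-KO1 replicates.

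The other snoRNA host genes that were called after IR were all lower, the direction of SNHG1. Of 23 listed, 22 were tested in RBM6-KO1 cells, and 4 were called lower and 0 higher, where 1.97% of all genes tested were called lower and 3.11% in either direction. The 4 were SNHG9 (log2 fold change −1.56, adjusted p = 0.0354), SNHG17 (−1.03, adjusted p = 0.0354), SNHG19 (−1.54, adjusted p = 0.0277) and SNHG30 (−1.16, adjusted p = 0.0412). By the adjusted p alone 6 were lower and 1 higher, beside 3.23% of all genes tested lower and 5.67% in either direction. By sign, 16 were below 0 and 6 above 0. The median over the 22 was −0.41, beside −0.0059 over all genes tested. In control cells SNHG3, SNHG10, SNHG19, SNHG20 and SNHG30 were called lower and none higher, where 3.59% of all genes tested were called in either direction, with a median of −0.42 beside 0.017 over all genes tested. SNHG9 and SNHG10 were at 4.62 normalized CPM or less in every library. None of the list was called between genotypes by edgeR with a 2-fold change, while DANCR was lower in untreated RBM6-KO1 cells by the adjusted p alone (−0.76, adjusted p = 0.00752).

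Among 22 other long noncoding RNAs tested in RBM6-KO1 cells, 2 were called lower and 1 higher after IR, where 3.11% of all genes tested were called (1.97% lower). Their median was −0.16, beside −0.0059 over all genes tested. KCNQ1OT1, the antisense transcript of the imprinted KCNQ1 locus, fell after IR in RBM6-KO1 cells. It was at 14.5 and 14.1 normalized CPM before IR and 3.50 and 4.51 after IR in control cells, and at 15.8 and 24.8 before IR and 7.22 and 2.60 after IR in RBM6-KO1 cells. The fall was −2.06 on the log2 scale (SE 0.40, adjusted p = 0.0277), and its irradiated RBM6-KO1 replicates differed 2.78-fold, replicate A being the higher as for MALAT1. In irradiated control cells replicate B was the higher, unlike for MALAT1. MIR17HG, the host of an oncogenic microRNA cluster, fell (−1.28, adjusted p = 0.0468), and PURPL, a p53-induced RNA, rose (adjusted p = 0.0472) from 0.113 and 0.0680 normalized CPM, under the limit that a count of 0 allows, to 0.671 and 0.980. In control cells KCNQ1OT1 (−1.83) and PURPL were called in the same directions.

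The mRNAs of proteins that share a nuclear body with MALAT1 had a median below 0 after IR. Of 24 genes of nuclear speckle proteins, 1 was called lower after IR in RBM6-KO1 cells, and 5 were lower by the adjusted p alone, beside 1.97% and 3.23% of all genes tested. Their median was −0.28, beside −0.0059 over all genes tested. PNN, a speckle protein that regulates splicing, was the called one (−1.12, SE 0.22, adjusted p = 0.0274), at 173 and 225 normalized CPM before and 111 and 73.0 after IR. In control cells U2AF1 was called lower (−1.03), a gene whose reads may be shared with a near-identical copy. The median in control cells was −0.24, and none was called between genotypes, with BCLAF1 higher in untreated RBM6-KO1 cells by the adjusted p alone (0.91, adjusted p = 0.00522).

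The other paraspeckle proteins were not called in any comparison of 2 groups, where 1.17% to 3.59% of all genes tested were called. For 32 genes tested, 0 called is near that share. Of 34 listed, 33 had a single row and 32 were tested, with differences after IR in RBM6-KO1 cells from −0.79 to 0.44 and a median of −0.012 beside −0.0059 over all genes tested, of which 3.11% were called. CIRBP, the cold-inducible RNA-binding protein, was lower by the adjusted p alone (−0.79, adjusted p = 0.0287), and its control size was −0.82. SFPQ, NONO and PSPC1 lay inside the range of these other proteins.

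No gene beside NEAT1 and MALAT1 on 11q13 was called after IR. Of all genes tested, 3.11% were called in RBM6-KO1 cells and 3.59% in control cells, so 0 of 14 is near that share. FRMD8, which ends 9248 bases before NEAT1, was higher after IR by 0.26 in RBM6-KO1 cells (adjusted p = 0.291), at 43.2 and 40.0 normalized CPM before and 50.1 and 50.5 after IR. Over the 14 neighbours tested the differences ran from −0.99 to 0.26 in RBM6-KO1 cells and from −0.94 to 0.32 in control cells. In each genotype 11 were below 0 and 3 above 0. Their median was −0.23 in RBM6-KO1 cells, beside −0.0059 over all genes tested, and −0.32 in control cells, beside 0.017. NEAT1 (−1.55) and MALAT1 (−1.72) lay outside that range.

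**Figure D4:**
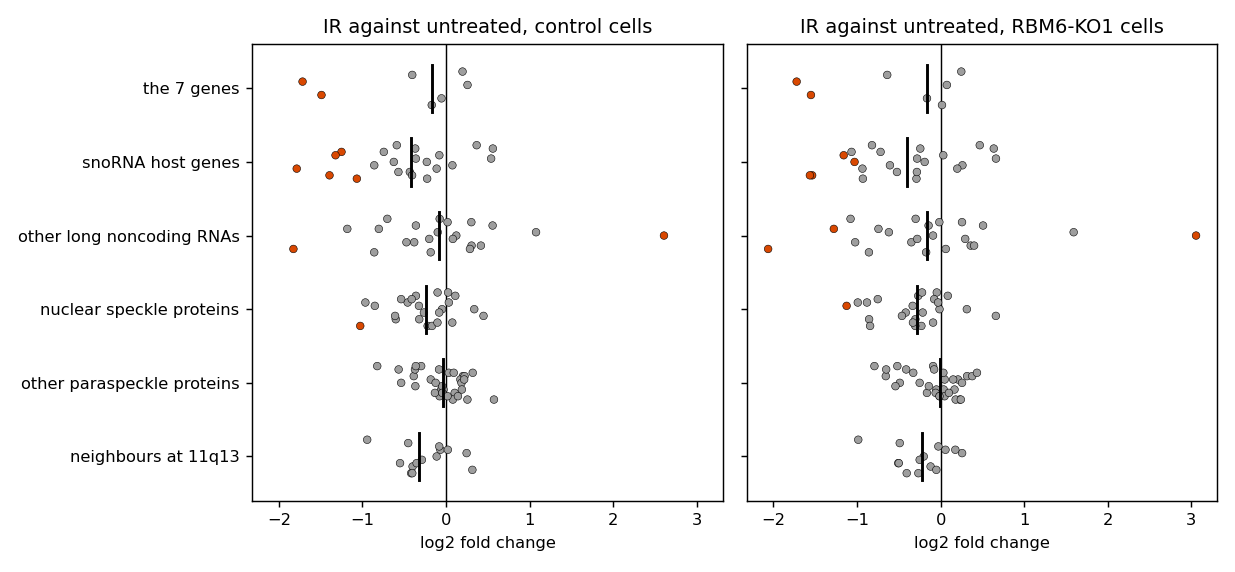
Log2 fold changes after IR in control cells (left) and RBM6-KO1 cells (right) for the 7 genes and for 5 other gene lists; each point is a gene, orange points are called (a fold change of 2 or more and an adjusted p below 0.05) and black lines are list medians. In RBM6-KO1 cells 4 snoRNA host genes (median −0.41) and 1 nuclear speckle gene (median −0.28) were called lower. No gene of the other paraspeckle proteins or of the 11q13 neighbours was called, where 3.11% of all genes tested were.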

How the data were processed

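RNA was extracted with TRIzol, libraries were made with the TruSeq mRNA kit and sequenced as paired-end reads on a HiSeq. The authors deposited whole-number counts per Ensembl gene without normalization. The submitters' processing notes name STAR, DESeq2 and hg38; the counting tool, annotation and strand setting are not given in the sources used here. Symbols and positions came from GENCODE v44, which held 57392 of the identifiers and lacked 841. TALAM1 had no row and was not used here, and MATR3 was left out because 2 identifiers carry its symbol.

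Counts were tested in R 4.3.3 with edgeR 4.0.16 (quasi-likelihood test, TMM, filterByExpr), each comparison on its own 4 libraries, with Benjamini-Hochberg adjustment over all genes tested and a call at a fold change of 2 or more with an adjusted p below 0.05. The standard error is the size of the log2 fold change over the square root of F. Displayed levels are CPM with TMM factors over all 8 libraries. The interaction was fitted over all 8 libraries, where 0 of 16549 genes had an adjusted p under 0.05 and 306 an unadjusted p under 0.05 by edgeR. Likeness used genes of at least 10 CPM on average and log2 CPM (prior count 2). The fits were tested on simulated data. Zero limits are 3 counts and cover counting error only.

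The 7 genes and all gene lists were chosen with earlier results of these data known. All 7 genes were named in every comparison; of the other lists, the called genes (at most 6 per list and comparison), the 5 genes nearest to NEAT1 and to MALAT1, and the nearest tested neighbour of NEAT1. A neighbour of MALAT1 is not reported here. DANCR, BCLAF1, CIRBP, KRT14, KRT18, PECAM1 and COL1A1 were named after their values were seen. The replicates are described as biological. Deviations of same-letter libraries from their group means correlated at 0.35 between the irradiated control and irradiated RBM6-KO1 groups. For the other pairs of groups these correlations ran from −0.28 to 0.079, so the letters did not pair the libraries across all groups. Whether the irradiated groups shared a batch by letter was not tested. Alternatives were DESeq2 1.42.0, other normalizations and filters, the adjusted p alone, 1 fit of all 8 libraries, a replicate block, GC and length trends (splines with 4 df), and each library left out in turn.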

Additional observations from a re-analysis of the deposited data

How the results depend on the processing

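Of the 7 genes, 2 were called after IR in RBM6-KO1 cells under every alternative, with 3 by the adjusted p alone, except DESeq2's Wald test, which called 1 (NEAT1). In untreated cells the genotype comparison called 0 of the 7 except by the adjusted p alone (1, MALAT1) and with a library left out (0 to 1). After IR it called 0 except without the filter on low counts (1, MALAT1) and with a library left out (0 to 1). Leaving out a library leaves 1 in its group, which is then assumed to vary like the other group. NEAT1 in RBM6-KO1 cells ranged from −1.84 to −1.29 when a library was left out, at adjusted p-values of at most 0.00889 over all alternatives.

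With the replicate block 2, 0 and 0 of the 7 were called in RBM6-KO1 after IR, in untreated cells and after IR, and 646, 524 and 541 of all genes, beside 485, 486 and 182 without it. By the adjusted p alone, the block lost SNHG1 in RBM6-KO1 after IR (0.134) and gave GAS5 (0.000599) and MALAT1 (0.0262) between genotypes after IR. A crossed block in RBM6-KO1 cells, chosen after seeing the data, called 2 of the 7 and 1222 of all genes. By the edgeR adjusted p alone it also gave SFPQ (0.0469) and NONO (0.00183). The count over all genes in the comparison after IR also moved with no filter (506), at least 10 counts in every library (71), 1 fit of all 8 libraries (340), GC and length trends removed (349) and DESeq2 (319). It moved in RBM6-KO1 after IR to 1011 with no filter and 884 by the adjusted p alone, and in untreated cells to 952 by the adjusted p alone. With a library left out it ran from 289 to 1563 in RBM6-KO1 after IR, from 399 to 658 in untreated cells and from 169 to 477 after IR.

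Some differences changed sign, most of them near 0. With GC and length trends removed these were GAS5 (−0.15) and PSPC1 (−0.083) in RBM6-KO1 after IR, NEAT1 (−0.020) and SFPQ (−0.014) in untreated cells, NONO (0.014) between genotypes after IR, and NONO (−0.021) in control cells after IR. GAS5 in RBM6-KO1 after IR was −0.021 with the upper quartile. Between genotypes after IR, NEAT1 was −0.015 with the block, and SNHG1 (0.0066) and PSPC1 (0.0087) changed without the filter. With a library left out, the ranges that crossed 0 were GAS5 −0.048 to 0.11 in RBM6-KO1 after IR; NEAT1 −0.093 to 0.18 and SFPQ −0.063 to 0.10 in untreated cells; NEAT1 −0.30 to 0.26, SNHG1 −0.055 to 0.029 and PSPC1 −0.096 to 0.076 between genotypes after IR; and SFPQ −0.12 to 0.020 in control cells after IR. The difference between the IR responses also changed sign: NEAT1 was 0.049 and MALAT1 0.0074 with GC and length trends removed, MALAT1 was 0.016 with the upper quartile, and with a library left out they ran from −0.36 to 0.19 (NEAT1), from −0.97 to 0.57 (MALAT1) and from −0.0035 to 0.11 (NONO). The cause was not tested. With 2 libraries a group, small differences of the abundant genes could not be settled by depth.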
